A study of Mus musculus with 10 samples.

Results

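The 37 genes described here encode the antigen receptor of T cells and its signalling partners, the co-receptors CD4 and CD8, costimulatory and checkpoint receptors, the proteins of cytotoxic granules, and receptors, transcription factors and cytokines of natural killer (NK) cells. They were taken by symbol from a table of 55291 genes measured by bulk RNA-seq in whole mouse liver, and all 37 were found. A T cell recognises a peptide on another cell with a T cell receptor, whose signal passes through the CD3 chains and the kinases LCK and ZAP70. NK cells have no such receptor and balance activating against inhibiting surface receptors, and both cell types kill through perforin and granzymes. The liver normally holds NK cells and several kinds of T cells, which lie along its sinusoids and are few beside the hepatocytes.

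The 10 livers came from female mice, 16 to 20 weeks old, with a Cas9 transgene behind a Lox-Stop-Lox cassette, which is not expressed before Cre acts. Every mouse received an AAV8 virus with a guide RNA and a Cre gene under the TBG promoter, which is active in hepatocytes, so Cre, Cas9 and virus were common to all groups and T and NK cells were not the cells meant to be edited. The guide was a non-targeting control (NTC) or a guide against Bap1 (sgBap1), which encodes a deubiquitinase of histone H2A. At day 10 the mice were given olive oil (Veh) or CCl4, a solvent that hepatocytes turn into a toxic radical, at 1 part to 9 parts of oil and 10 µL per g, and the right lobe was taken 48 hours later. There were 2 livers in each vehicle group (NTC-Veh and sgBap1-Veh) and 3 in each CCl4 group (NTC-CCl4 and sgBap1-CCl4). The questions are whether the T and NK cell genes differ between the genotypes in uninjured liver, whether they follow the injury, and whether the genotype alters that response.

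Levels are given as CPM, the counts of a gene scaled to a normalized library of fixed size, and a difference is a log2 fold change with its standard error (SE) from one model of the 4 groups. A gene is called when its adjusted p is under 0.05 in edgeR's quasi-likelihood test, two-sided and adjusted by Benjamini-Hochberg over the 17015 genes tested. Every adjusted p below is from this test unless another is named. Of the 37 genes, 35 passed the filter on low counts, and Gzmk and Ifng did not. In whole tissue, fewer cells of a type and less RNA per cell cannot be told apart. The libraries held 3.30e+07 to 5.22e+07 estimated counts, of which the 37 genes together took 641 to 2164. Bap1 itself measured 34.8 and 34.8 CPM in the NTC-Veh, 17.5 and 19.5 in the sgBap1-Veh, 30.1, 31.5 and 29.5 in the NTC-CCl4 and 17, 21.8 and 19.1 CPM in the sgBap1-CCl4 livers, lower in all 5 sgBap1 livers than in any NTC liver. The liver sgBap1-CCl4 2 also held transcripts of fat cells, with Adipoq at 36.4 CPM and Plin1 at 34.5, against at most 0.0425 CPM of either in the other 9.

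Seen over all the genes, the lowest liver was NTC-Veh 2 and the highest were the sgBap1-Veh livers and NTC-CCl4 3. The 36 genes without Zap70 summed to 24.2 and 11.1 CPM in the NTC-Veh, 36.8 and 35.8 in the sgBap1-Veh, 30.9, 27.4 and 40.4 in the NTC-CCl4 and 22.9, 33.9 and 32.5 CPM in the sgBap1-CCl4 livers. NTC-Veh 2 was below NTC-Veh 1 for 29 of the 35 tested genes, where 51.3% of all tested genes were, and its median ratio to NTC-Veh 1 was 0.444. The gap was wider for the 22 T cell genes, with a median ratio of 0.394, than for the 13 tested NK, cytotoxic, T-box and cytokine genes, with 0.679. NTC-CCl4 3 was the highest of its 3 livers for 18 of the 22 T cell genes and for 3 of the 13 others, where 32.2% of all tested genes had their highest value in it. Every comparison with the NTC-Veh group rests on these unlike livers, and values without NTC-Veh 2 are given below for the medians and for part of the named genes. For the lists of other cell types and the wider list they were not computed.

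**Figure D1:**
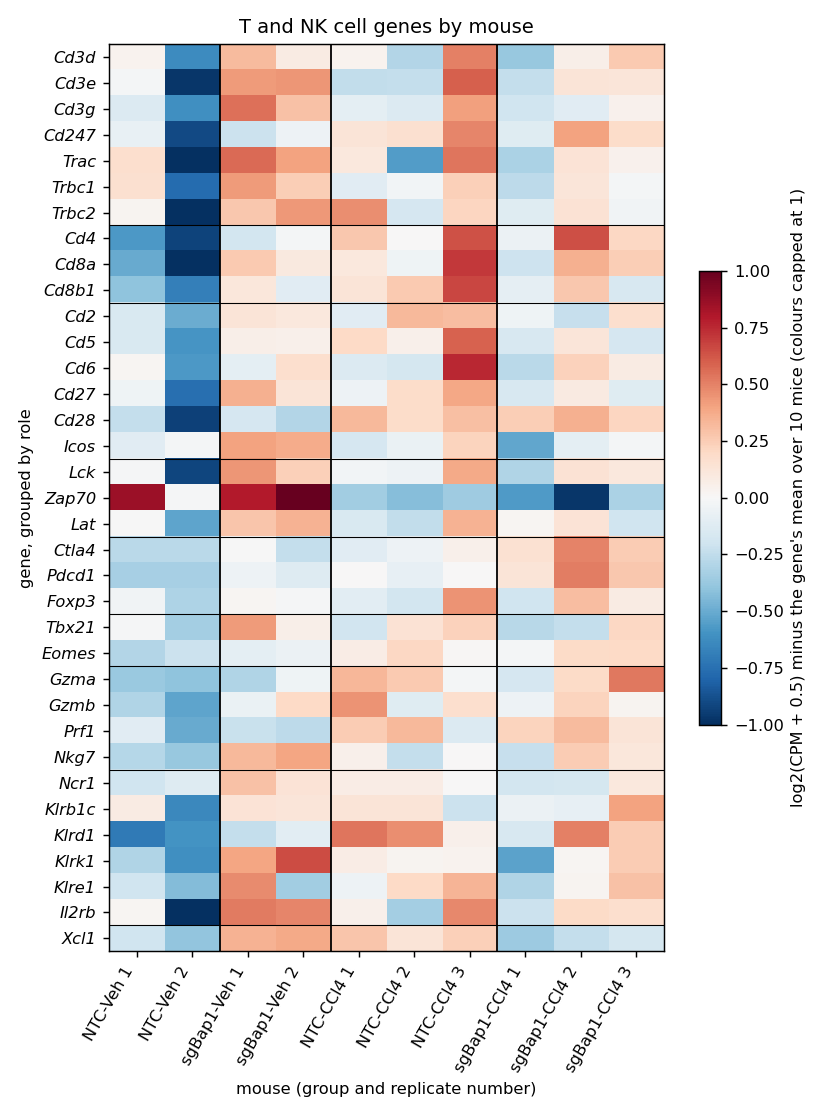
Colour gives the log2(CPM + 0.5) of each of the 35 tested genes (rows, grouped by role) in each of the 10 livers (columns) after subtraction of the gene's mean over the livers, with colours capped at 1 in either direction. The NTC-Veh 2 column is blue for most genes, the sgBap1-Veh columns are mostly red, and Zap70 stands out by being high with vehicle and low with CCl4.

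Per kilobase of annotated exon, the most abundant of the 37 genes in NTC-Veh liver was Zap70, at 3.22 CPM per kb, followed by Trbc2 at 0.986, Trbc1 at 0.894, Trac at 0.759, Il2rb at 0.686 and Nkg7 at 0.676 CPM per kb. The lowest were Ctla4 at 0.0118, Gzmk at 0.00998 and Pdcd1, which had no counts in that group. Lck and Lat, which act in the same signalling step as Zap70, measured 0.402 and 0.272 CPM per kb. In sgBap1-CCl4 liver, Trbc2 at 1.65 CPM per kb was above Zap70 at 1.43.

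The upstream sequences of 5 genes on which the comparisons turn are printed here, Xcl1, Klrk1, Ncr1 and Nkg7 because their livers moved in opposite directions with CCl4 in the 2 genotypes (an interaction that did not pass the test) and Zap70 because it fell with CCl4. Each is the 250 bases before a transcription start of RefSeq (GRCm38.p6), in the direction of transcription. Capitals mark TGTGGT or its reverse ACCACA (the core bound by RUNX factors), GGTGTGA or TCACACC (bound by T-box factors such as T-bet and EOMES), TGGAAA or TTTCCA (bound by NFAT) and TTCNNNGAA (bound by STAT factors), which do not overlap each other here. Zap70 has 3 annotated starts, of which the windows of the 2 with a match are shown, and the third holds none of the 4 motifs. Ncr1 has a second start 9 bases on, whose window holds the same matches.
Xcl1, chr1:164935523-164935772, minus strand: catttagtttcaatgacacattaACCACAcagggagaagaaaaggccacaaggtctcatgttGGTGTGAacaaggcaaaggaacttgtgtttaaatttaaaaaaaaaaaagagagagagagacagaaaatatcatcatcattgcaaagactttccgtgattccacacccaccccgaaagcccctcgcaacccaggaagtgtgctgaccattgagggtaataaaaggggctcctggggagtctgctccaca
Klrk1, chr6:129623865-129624114, minus strand: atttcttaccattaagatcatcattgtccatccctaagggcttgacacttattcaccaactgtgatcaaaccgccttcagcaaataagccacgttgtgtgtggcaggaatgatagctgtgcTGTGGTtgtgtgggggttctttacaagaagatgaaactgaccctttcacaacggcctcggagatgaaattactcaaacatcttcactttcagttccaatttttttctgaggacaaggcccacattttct
Ncr1, chr7:4337465-4337714, plus strand: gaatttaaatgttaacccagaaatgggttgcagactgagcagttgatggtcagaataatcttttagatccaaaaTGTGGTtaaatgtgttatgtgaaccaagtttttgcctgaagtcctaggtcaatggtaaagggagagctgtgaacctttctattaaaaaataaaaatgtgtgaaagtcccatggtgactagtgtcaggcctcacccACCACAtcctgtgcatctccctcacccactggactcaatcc
Nkg7, chr7:43436888-43437137, plus strand: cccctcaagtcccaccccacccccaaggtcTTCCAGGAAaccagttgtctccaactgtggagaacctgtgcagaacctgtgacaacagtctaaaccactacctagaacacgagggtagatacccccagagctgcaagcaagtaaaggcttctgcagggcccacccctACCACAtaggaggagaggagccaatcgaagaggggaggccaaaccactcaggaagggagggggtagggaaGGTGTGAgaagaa
Zap70 first start, chr1:36761548-36761797, plus strand: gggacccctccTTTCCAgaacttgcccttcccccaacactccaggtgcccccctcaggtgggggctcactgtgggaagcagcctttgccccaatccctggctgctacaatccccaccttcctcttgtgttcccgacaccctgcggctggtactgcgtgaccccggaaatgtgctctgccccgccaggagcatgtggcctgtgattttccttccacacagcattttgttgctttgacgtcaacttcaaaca
Zap70 second start, chr1:36764265-36764514, plus strand: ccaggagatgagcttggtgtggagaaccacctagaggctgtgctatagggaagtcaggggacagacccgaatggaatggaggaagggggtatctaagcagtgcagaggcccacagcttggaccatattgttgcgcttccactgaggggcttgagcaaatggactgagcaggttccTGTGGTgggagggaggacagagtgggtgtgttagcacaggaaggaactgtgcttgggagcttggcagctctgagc

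All 5 genes hold at least 1 RUNX core in these windows, Zap70 in the second of its 3, and the Ncr1 window holds 2. The Xcl1 and Nkg7 windows also hold a T-box core. The RefSeq table gave 32 such windows for 26 of the 37 genes. The RUNX core was in 12 of the 32 windows (37.5%), which belong to 11 of the 26 genes, Ncr1 counting with 2 overlapping windows. Among all 32841 windows searched, 14.0% held the RUNX core, both strands counted. Shares for the T-box core were 3 of 32 (9.38%) against 3.33%, for the NFAT core 6 of 32 (18.8%) against 18.6%, and for the STAT motif TTCNNNGAA 4 of 32 (12.5%) against 7.02%. A match is a run of letters and was not tested for binding.

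In vehicle-treated livers, all 35 tested genes had a higher fitted level in sgBap1-Veh than in NTC-Veh, against 53.4% of all tested genes, and none passed the test. Their median difference was 1.01 on the log2 scale, where the median of all tested genes was 0.02. Of all tested genes 0.406% were called in this comparison. At an unadjusted p under 0.05 there were 12 of the 35 genes, against 12.3% of all genes, and the smallest adjusted p among them was 0.126, that of Xcl1. For 29 of the 35 both sgBap1-Veh livers were above both NTC-Veh livers, which held for 21.7% of all tested genes. Without NTC-Veh 2 the median fell to 0.55, and without NTC-Veh 1 it was 1.72. DESeq2's Wald test called 1 of the 24 genes to which it gave an adjusted p, Klrk1. Among all genes with an adjusted p it called 551 of 14553.

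Counted over the 35 tested genes, CCl4 in NTC livers gave 11 calls higher and 1 lower, against 27.4% and 26.6% of all tested genes, and 34 of the 35 had a positive difference, against 51.5%. The median difference was 1.00, or 0.81 with Pdcd1 set to the value that 3 counts in its empty group would give, and the median of all tested genes was 0.03. In sgBap1 livers CCl4 gave 1 call higher (Ctla4) and 4 lower (Zap70, Xcl1, Icos and Klrk1), against 29% and 28% of all genes, and 13 of the 35 had a positive difference, against 51.9%, with a median of -0.37. The vehicle and CCl4 libraries differ in their TMM factors, edgeR's correction for library composition, and with scaling by library size alone the medians of all tested genes became 0.50 in NTC and 0.52 in sgBap1 livers. On that scale 24 of the 35 were called higher and none lower in NTC livers, with a median of 1.48, and in sgBap1 livers 7 were called higher and 2 lower, with a median of 0.10, so that the sign of the sgBap1 median depends on the scaling. Without NTC-Veh 2 the NTC comparison had 2 calls and a median of 0.49. Of the 17 calls, those of Klrd1 in NTC livers and of Zap70 and Xcl1 in sgBap1 livers were kept under all 18 alternative settings tried, 10 of which leave out 1 liver.

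**Figure D2:**
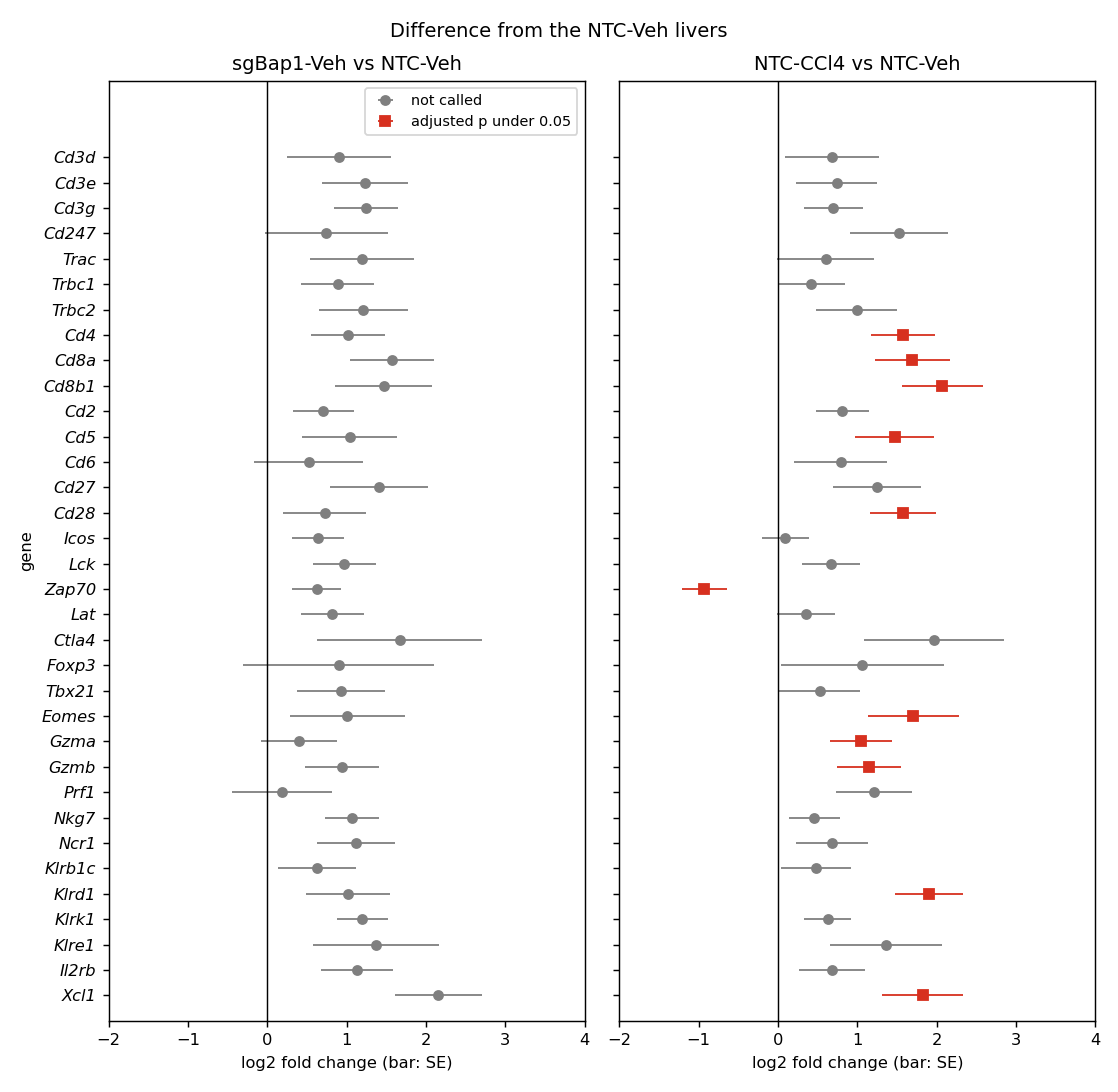
Log2 fold change (points) with its SE (bars) of 34 genes in sgBap1-Veh (left) and NTC-CCl4 (right) against the same 2 NTC-Veh livers, with red squares for an adjusted p under 0.05 and grey circles for the others, and with Pdcd1 left out because it had no counts in NTC-Veh. All points on the left lie above 0 and none is called, and on the right 10 genes are called higher and Zap70 lower.

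The 7 genes of the T cell receptor complex had a higher mean in the sgBap1-Veh group than in the NTC-Veh group, with none called. Cd3d, Cd3e and Cd3g encode the CD3 chains, Cd247 the zeta chain that carries the signal inward, and Trac, Trbc1 and Trbc2 the constant parts of the receptor itself. The 7 summed to 6.29 and 1.66 CPM in the NTC-Veh, 8.93 and 8.31 in the sgBap1-Veh, 6.48, 4.92 and 9.4 in the NTC-CCl4 and 4.67, 6.93 and 6.59 CPM in the sgBap1-CCl4 livers. Both sgBap1-Veh sums were above both NTC-Veh sums, NTC-Veh 2 held the lowest sum of all 10 livers, and the CCl4 groups overlapped each other. Cd3e measured 1.12 and 0.333 CPM in the NTC-Veh, 1.7 and 1.72 in the sgBap1-Veh, 0.874, 0.883 and 1.98 in the NTC-CCl4 and 0.885, 1.28 and 1.28 CPM in the sgBap1-CCl4 livers. Its difference in sgBap1-Veh was 1.23 ± 0.54 (SE, 2 livers against 2, adjusted p = 0.397), or 0.61 without NTC-Veh 2, and NTC-Veh 2 was the lowest of the 10 livers. Trac measured 1.2 and 0.222 CPM in the NTC-Veh, 1.75 and 1.5 in the sgBap1-Veh, 1.13, 0.526 and 1.69 in the NTC-CCl4 and 0.715, 1.16 and 1.06 CPM in the sgBap1-CCl4 livers, and its difference was 1.19 ± 0.65 (adjusted p = 0.523), or 0.45 without NTC-Veh 2. Over the 10 livers Cd3d ran from 0.194 to 1.01 CPM, Cd3g from 0.388 to 1.48, Cd247 from 0.0277 to 0.885, Trbc1 from 0.305 to 1.35 and Trbc2 from 0.194 to 1.77 CPM. These 5 differed in sgBap1-Veh by 0.75 to 1.24. Between the vehicle groups 6 of the 7 had no overlap, the exception being Cd247, and 21.7% of all tested genes were higher in sgBap1-Veh without overlap. Trbc1 and Trbc2 are alike in sequence, with 40.5% and 44.0% of all runs of 50 bases not unique to the gene, chiefly because they match each other, so the split between them is uncertain.

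With CCl4 in NTC livers none of these 7 genes was called, with differences of 0.42 (Trbc1) to 1.53 (Cd247) on the log2 scale. Trac, at 0.60 ± 0.61 (adjusted p = 0.436), changed sign to -0.14 without NTC-Veh 2. In sgBap1 livers 6 of the 7 had a negative fitted difference with CCl4 and none was called, with Cd3g at -0.79 ± 0.33 (adjusted p = 0.0629) the nearest to the threshold.

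All 3 co-receptor genes rose with CCl4 in NTC livers, and none was called in sgBap1 livers. None of the 3 was called in the interaction (smallest adjusted p = 0.320), so the responses were not shown to differ between the genotypes. CD4 marks helper and regulatory T cells, and Cd8a and Cd8b1 encode the 2 chains of the CD8 co-receptor of cytotoxic T cells. Cd8a (ENSMUSG00000053977.13, chromosome 6, 71373427 to 71379173, plus strand) measured 0.572 and 0.249 CPM in the NTC-Veh, 1.32 and 1.12 in the sgBap1-Veh, 1.13, 0.977 and 1.98 in the NTC-CCl4 and 0.817, 1.44 and 1.3 CPM in the sgBap1-CCl4 livers. The NTC-Veh livers were below all the other 8. Its rise with CCl4 in NTC livers was 1.69 ± 0.47 (2 livers against 3, adjusted p = 0.0117), its difference in sgBap1-Veh was 1.57 ± 0.53 (adjusted p = 0.248, or 1.1 without NTC-Veh 2), and with CCl4 in sgBap1 livers it was -0.06 ± 0.39 (adjusted p = 0.907).

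Cd8b1 measured 0.245 and 0.111 CPM in the NTC-Veh, 0.565 and 0.412 in the sgBap1-Veh, 0.576, 0.676 and 1.07 in the NTC-CCl4 and 0.426, 0.685 and 0.383 CPM in the sgBap1-CCl4 livers. It rose by 2.07 ± 0.51 with CCl4 in NTC livers (adjusted p = 0.00615), and 6.0% of its runs of 50 bases occur in another gene too. Cd4 measured 0.708 and 0.443 CPM in the NTC-Veh, 1.08 and 1.27 in the sgBap1-Veh, 1.66, 1.3 and 2.29 in the NTC-CCl4 and 1.23, 2.31 and 1.57 CPM in the sgBap1-CCl4 livers. Its NTC-Veh and NTC-CCl4 livers did not overlap, and it rose by 1.58 ± 0.40 (adjusted p = 0.00713), against 0.55 ± 0.36 in sgBap1 livers (adjusted p = 0.216). Without NTC-Veh 2 none of the 3 rises passed the test, with values of 1.62 for Cd8b1, 1.29 for Cd4 and 1.22 for Cd8a (adjusted p = 0.066, 0.072 and 0.11). The ratio of Cd8a to Cd4 CPM ran from 0.563 to 1.23 over the 10 livers and overlapped between all groups except sgBap1-Veh, at 0.882 and 1.23, which lay above the others. The margin was small: NTC-CCl4 3 was at 0.864, and the 0.882 of sgBap1-Veh 2 rests on 30 counts of Cd8a and 34 of Cd4.

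Of the 6 adhesion and costimulatory genes, Cd28 and Cd5 rose with CCl4 in NTC livers and Icos fell with CCl4 in sgBap1 livers. None of the 6 was called in the interaction (smallest adjusted p = 0.406). Cd28, the main costimulatory receptor, measured 0.49 and 0.111 CPM in the NTC-Veh, 0.538 and 0.449 in the sgBap1-Veh, 0.959, 0.827 and 0.937 in the NTC-CCl4 and 0.885, 0.993 and 0.85 CPM in the sgBap1-CCl4 livers. All 6 CCl4 livers lay above all 4 vehicle livers, and the rise was 1.57 ± 0.42 in NTC (adjusted p = 0.0090), with a difference of 0.86 ± 0.38 in sgBap1 livers (adjusted p = 0.0767). Cd5, which dampens T cell receptor signals, measured 0.327 and 0.111 CPM in the NTC-Veh, 0.458 and 0.449 in the sgBap1-Veh, 0.554, 0.451 and 0.885 in the NTC-CCl4 and 0.324, 0.496 and 0.319 CPM in the sgBap1-CCl4 livers and rose by 1.47 ± 0.50 in NTC livers (adjusted p = 0.0295). Without NTC-Veh 2 the difference was 0.88 for Cd28 (adjusted p = 0.071) and 0.91 for Cd5 (adjusted p = 0.23), neither of them called. Cd5 was also not called without NTC-CCl4 3 (adjusted p = 0.077).

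Icos, a costimulatory receptor of activated T cells, measured 0.926 and 1.03 CPM in the NTC-Veh, 1.53 and 1.5 in the sgBap1-Veh, 0.874, 0.977 and 1.3 in the NTC-CCl4 and 0.579, 0.941 and 1.02 CPM in the sgBap1-CCl4 livers. The sgBap1-Veh livers were the highest of the 10, and the fall with CCl4 in sgBap1 livers was -0.85 ± 0.29 (adjusted p = 0.0271), a call lost in 5 of 18 alternative settings, among them the fits without either sgBap1-Veh liver (adjusted p = 0.12 and 0.085), without sgBap1-CCl4 1 (adjusted p = 0.076) and with scaling by library size alone (-0.37, adjusted p = 0.30). Cd27, a receptor of the TNF receptor family, measured 0.408 and 0.0554 CPM in the NTC-Veh, 0.70 and 0.524 in the sgBap1-Veh, 0.405, 0.564 and 0.729 in the NTC-CCl4 and 0.341, 0.496 and 0.361 CPM in the sgBap1-CCl4 livers, with a difference of 1.41 ± 0.62 in sgBap1-Veh (adjusted p = 0.396), or 0.60 without NTC-Veh 2. Cd2 and Cd6, which bind adhesion ligands, ran from 0.471 to 1.22 and from 0.249 to 1.38 CPM and were not called in any comparison, with differences in sgBap1-Veh of 0.70 and 0.52.

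Zap70 had the highest CPM of the 37 genes in every vehicle liver and fell with CCl4 in both genotypes. It encodes the kinase that binds the phosphorylated CD3 and zeta chains (ENSMUSG00000026117.10, chromosome 1, 36761798 to 36782818, plus strand), and it measured 12.6 and 6.68 CPM in the NTC-Veh, 12 and 17.8 in the sgBap1-Veh, 5.18, 4.88 and 5.13 in the NTC-CCl4 and 4.38, 3.18 and 5.29 CPM in the sgBap1-CCl4 livers. All 6 CCl4 livers were below all 4 vehicle livers. The fall was -0.93 ± 0.28 in NTC (adjusted p = 0.019) and -1.80 ± 0.28 in sgBap1 livers (adjusted p = 0.000424), and it is the 1 gene of the 35 with a negative difference in NTC livers. In NTC livers it was no longer called without NTC-Veh 1 (-0.40, adjusted p = 0.30), without NTC-CCl4 2 (-0.90, adjusted p = 0.0519) or with scaling by library size alone (-0.44, adjusted p = 0.14), with the sign still negative. A pseudogene, Gm18828, lies on the other strand and had 0 counts in every liver. Lck, the kinase upstream of it, measured 1.69 and 0.665 CPM in the NTC-Veh, 2.5 and 2.1 in the sgBap1-Veh, 1.66, 1.63 and 2.37 in the NTC-CCl4 and 1.29, 1.93 and 1.87 CPM in the sgBap1-CCl4 livers, and neither Lck nor the adaptor gene Lat (0.527 to 1.38 CPM over the 10 livers) was called in any comparison.

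**Figure D3:**
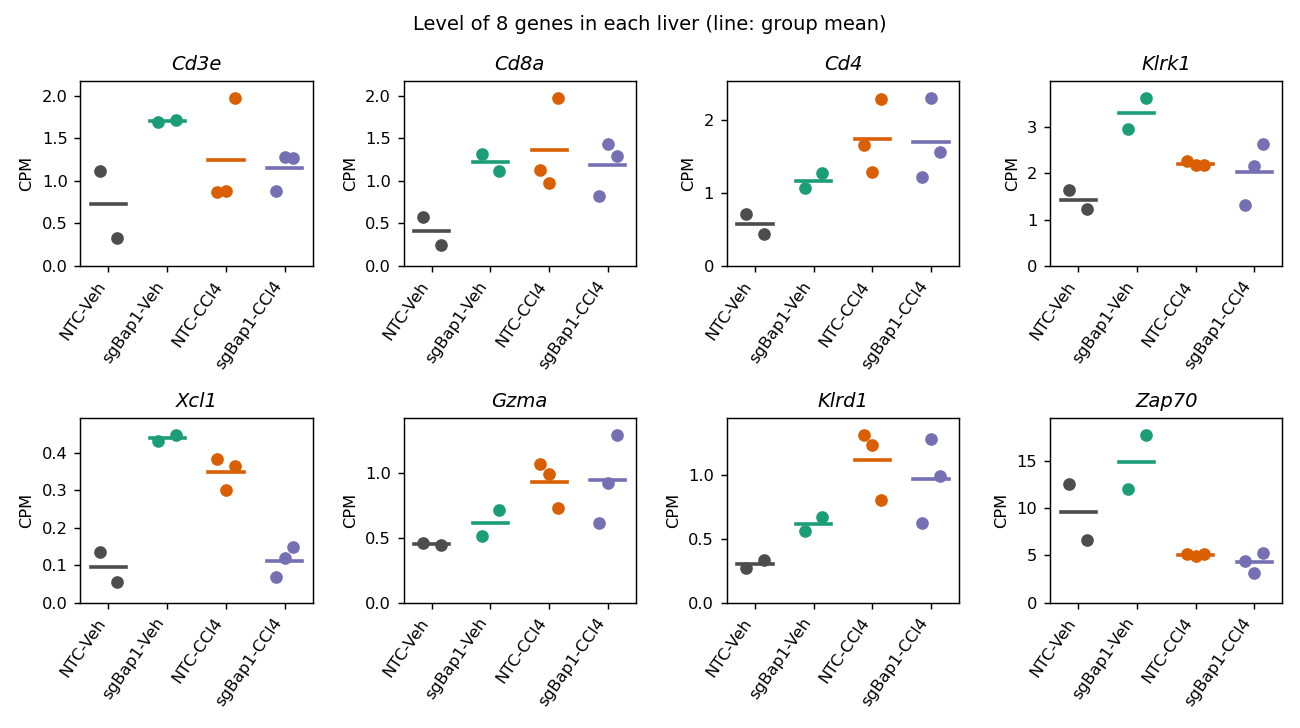
Level in CPM on linear axes from 0, for 8 genes (panels) in the 4 groups, each point being a liver and each line the mean of its group. Xcl1 and Klrk1 are highest in sgBap1-Veh, Cd8a and Cd4 are lowest in NTC-Veh, and Zap70 is lower in all 6 CCl4 livers than in the 4 vehicle livers.

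The checkpoint receptors and the regulatory T cell factor were measured from few counts. PD-1, encoded by Pdcd1, and CTLA-4 restrain activated T cells, and FOXP3 defines regulatory T cells. The counts of Pdcd1 were 0 and 0 in the NTC-Veh, 4 and 2 in the sgBap1-Veh, 6, 5 and 5 in the NTC-CCl4 and 11, 23 and 12 in the sgBap1-CCl4 livers, so that only the NTC-Veh livers had none. It was called higher in NTC-CCl4 (adjusted p = 0.0155), and since its control livers are at 0 no fold is given. Without either NTC-Veh liver it was not called (adjusted p = 0.070 each). Ctla4 had counts of 1 and 1 in the NTC-Veh, 5 and 1 in the sgBap1-Veh, 4, 6 and 6 in the NTC-CCl4 and 12, 23 and 12 in the sgBap1-CCl4 livers, and it rose by 1.58 ± 0.57 with CCl4 in sgBap1 livers (adjusted p = 0.0312). That call was lost in 7 of the 16 alternative settings with a value, among them the fits without either NTC-Veh liver (adjusted p = 0.064 each) and without sgBap1-Veh 2, at 1.07 (adjusted p = 0.20). In both genes the 3 sgBap1-CCl4 livers were above the 3 NTC-CCl4 livers, where 10.1% of all tested genes were, and the difference was 1.28 ± 0.42 for Ctla4 (unadjusted p = 0.00969, adjusted p = 0.199 by edgeR) and 1.25 ± 0.44 for Pdcd1 (adjusted p = 0.252). The highest count of each, 23, was in sgBap1-CCl4 2, the liver with the fat cell genes, and without it neither gene passed the filter. Foxp3 had counts of 5 and 1 in the NTC-Veh, 6 and 4 in the sgBap1-Veh, 5, 4 and 15 in the NTC-CCl4 and 4, 18 and 9 in the sgBap1-CCl4 livers, with no call and with 14.7% of its runs of 50 bases found in other genes, chiefly an overlapping transcript.

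Eomes, a T-box factor of NK cells and memory T cells, rose with CCl4 in NTC livers. It measured 0.0545 and 0.0831 CPM in the NTC-Veh, 0.135 and 0.15 in the sgBap1-Veh, 0.213, 0.282 and 0.182 in the NTC-CCl4 and 0.17, 0.274 and 0.276 CPM in the sgBap1-CCl4 livers, from 2 to 16 counts per liver, with a rise of 1.70 ± 0.57 (adjusted p = 0.0274). The call was lost in 5 of the 17 alternative settings with a value, among them the fits without either NTC-Veh liver (adjusted p = 0.17 and 0.087) and without NTC-CCl4 2 (adjusted p = 0.076). Tbx21, which encodes T-bet, the factor of interferon-producing T and NK cells, measured 0.408 and 0.222 CPM in the NTC-Veh, 0.727 and 0.449 in the sgBap1-Veh, 0.298, 0.507 and 0.573 in the NTC-CCl4 and 0.255, 0.274 and 0.553 CPM in the sgBap1-CCl4 livers and was not called.

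Among the cytotoxic granule genes, Gzma and Gzmb rose with CCl4 in NTC livers, and none was called in sgBap1 livers. The interaction was not called for any of them (smallest adjusted p = 0.514), so the responses were not shown to differ between the genotypes. Granzymes A and B are proteases that perforin, encoded by Prf1, lets into the target cell. Gzma measured 0.463 and 0.443 CPM in the NTC-Veh, 0.511 and 0.711 in the sgBap1-Veh, 1.07, 0.996 and 0.729 in the NTC-CCl4 and 0.613, 0.924 and 1.3 CPM in the sgBap1-CCl4 livers. Its rise was 1.05 ± 0.39 in NTC (adjusted p = 0.0448), with a difference of 0.63 ± 0.38 in sgBap1 livers (adjusted p = 0.18). Gzmb measured 0.408 and 0.277 CPM in the NTC-Veh, 0.565 and 0.786 in the sgBap1-Veh, 1.02, 0.526 and 0.755 in the NTC-CCl4 and 0.579, 0.805 and 0.638 CPM in the sgBap1-CCl4 livers. It had a rise of 1.14 ± 0.40 in NTC livers (adjusted p = 0.0348) and a difference of 0.03 ± 0.36 in sgBap1 livers (adjusted p = 0.955). The call was lost in 10 of 18 alternative settings for Gzma, 7 of them leaving out 1 liver, and in 7 of 18 for Gzmb, 4 of them leaving out 1 liver. Neither was called without either NTC-Veh liver (adjusted p = 0.15 and 0.16 for Gzma, 0.07 and 0.20 for Gzmb) or without NTC-CCl4 1 (adjusted p = 0.11 each).

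Prf1 passed the test with CCl4 in neither genotype. It measured 0.299 and 0.111 CPM in the NTC-Veh, 0.242 and 0.225 in the sgBap1-Veh, 0.533, 0.582 and 0.286 in the NTC-CCl4 and 0.511, 0.582 and 0.446 CPM in the sgBap1-CCl4 livers. It had a difference of 1.21 ± 0.48 in NTC (adjusted p = 0.0539) and 1.13 ± 0.47 in sgBap1 livers (adjusted p = 0.0621). Its difference in sgBap1-Veh, 0.19 ± 0.63, was the smallest of the 35 and changed to -0.35 without NTC-Veh 2. Nkg7, a granule membrane protein needed for their release, measured 0.653 and 0.582 CPM in the NTC-Veh, 1.26 and 1.35 in the sgBap1-Veh, 0.959, 0.695 and 0.911 in the NTC-CCl4 and 0.698, 1.18 and 1.02 CPM in the sgBap1-CCl4 livers. It had a difference of 1.07 ± 0.34 in sgBap1-Veh (adjusted p = 0.217). The sgBap1-Veh livers were above the other 8. Gzmk had counts of 0 and 1 in the NTC-Veh, 0 and 0 in the sgBap1-Veh, 3, 1 and 9 in the NTC-CCl4 and 2, 3 and 3 in the sgBap1-CCl4 livers, too few for the test.

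The summed level of the NK receptor genes, most of it from Il2rb and Klrk1, was highest in the sgBap1-Veh livers, while Klrd1 was highest in NTC-CCl4 1 and Klrb1c in sgBap1-CCl4 3. Ncr1 encodes NKp46 and Klrb1c NK1.1, both activating receptors, and Klrk1 encodes NKG2D, which binds stress-induced ligands. Klrd1 encodes CD94, the partner of NKG2 receptors other than NKG2D, and Klre1 is another lectin-like receptor. With Il2rb, the chain shared by the IL-2 and IL-15 receptors, the 6 summed to 7.54 and 3.55 CPM in the NTC-Veh, 11.9 and 12 in the sgBap1-Veh, 9.59, 8.36 and 10.7 in the NTC-CCl4 and 6.67, 9.71 and 10.6 CPM in the sgBap1-CCl4 livers. All 6 were higher in sgBap1-Veh, by 0.63 (Klrb1c) to 1.37 (Klre1) on the log2 scale, and none was called by the quasi-likelihood test. The vehicle groups did not overlap for 5 of them, and 21.7% of all tested genes were higher in sgBap1-Veh without overlap. With CCl4, 1 rose in NTC livers and 1 fell in sgBap1 livers, and none of the 6 was called in the interaction (smallest adjusted p = 0.246).

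Klrd1 (ENSMUSG00000030165.16, chromosome 6, 129591782 to 129598775, plus strand) rose with CCl4 in NTC livers. It measured 0.272 and 0.333 CPM in the NTC-Veh, 0.565 and 0.674 in the sgBap1-Veh, 1.32, 1.24 and 0.807 in the NTC-CCl4 and 0.63, 1.28 and 0.999 CPM in the sgBap1-CCl4 livers, with every NTC-CCl4 liver above both NTC-Veh livers, and the rise of 1.90 ± 0.43 (adjusted p = 0.00383) had the smallest adjusted p of the 35 genes. Klrd1 and Zap70 were the 2 genes still called in this comparison without NTC-Veh 2, at 2.05 (adjusted p = 0.0247) and -1.31 (adjusted p = 0.00419). In sgBap1 livers the difference was 0.66 ± 0.39 (adjusted p = 0.171).

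Klrk1 (ENSMUSG00000030149.15, chromosome 6, 129610323 to 129623864, minus strand) was the one of these 6 that fell with CCl4 in sgBap1 livers. It measured 1.63 and 1.22 CPM in the NTC-Veh, 2.96 and 3.63 in the sgBap1-Veh, 2.26, 2.18 and 2.19 in the NTC-CCl4 and 1.31, 2.16 and 2.64 CPM in the sgBap1-CCl4 livers. Both sgBap1-Veh livers were above the other 8, the difference from NTC-Veh was 1.20 ± 0.32 (adjusted p = 0.14), and the fall with CCl4 was -0.70 ± 0.27 (adjusted p = 0.0473). That call was lost in 14 of the 18 alternative settings, 9 of them among the 10 that leave out 1 liver, with adjusted p-values of 0.0141 to 0.495, and with scaling by library size alone the fall was -0.22. Ncr1 (ENSMUSG00000062524.4, chromosome 7, 4337724 to 4345164, plus strand) measured 0.163 and 0.194 CPM in the NTC-Veh, 0.431 and 0.337 in the sgBap1-Veh, 0.298, 0.301 and 0.26 in the NTC-CCl4 and 0.17, 0.171 and 0.319 CPM in the sgBap1-CCl4 livers. It had differences of 1.11 ± 0.49 in sgBap1-Veh (adjusted p = 0.397, or 1.24 without NTC-Veh 2) and -0.85 ± 0.40 with CCl4 in sgBap1 livers (adjusted p = 0.0939). Klre1 measured 0.218 and 0.111 CPM in the NTC-Veh, 0.646 and 0.15 in the sgBap1-Veh, 0.298, 0.451 and 0.547 in the NTC-CCl4 and 0.17, 0.342 and 0.51 CPM in the sgBap1-CCl4 livers. It was not called, and its highest value of the 10 livers was in sgBap1-Veh 1. Il2rb ran from 1.41 to 6.51 CPM and was not called. Klrb1c measured 0.79 and 0.277 CPM in the NTC-Veh, 0.834 and 0.823 in the sgBap1-Veh, 0.831, 0.827 and 0.547 in the NTC-CCl4 and 0.664, 0.65 and 1.11 CPM in the sgBap1-CCl4 livers. It was not called in any comparison and has 17.0% of its runs of 50 bases in common with other genes, chiefly an overlapping one.

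Of the 2 cytokine genes, Xcl1 had the smallest adjusted p of the 35 tested genes in sgBap1-Veh, between the CCl4 groups and in the interaction. It encodes lymphotactin, a chemokine that NK cells and activated CD8 T cells release and that attracts cross-presenting dendritic cells (ENSMUSG00000026573.7, chromosome 1, 164931644 to 164935527, minus strand). It measured 0.136 and 0.0554 CPM in the NTC-Veh, 0.431 and 0.449 in the sgBap1-Veh, 0.384, 0.301 and 0.364 in the NTC-CCl4 and 0.0681, 0.12 and 0.149 CPM in the sgBap1-CCl4 livers, from 2 to 18 counts per liver. The 2 sgBap1-Veh and 3 NTC-CCl4 livers were all above the 2 NTC-Veh and 3 sgBap1-CCl4 livers. The difference in sgBap1-Veh was 2.16 ± 0.55 (adjusted p = 0.126, or 1.67 without NTC-Veh 2), it rose with CCl4 in NTC livers by 1.82 ± 0.51 (adjusted p = 0.0115), and it fell with CCl4 in sgBap1 livers, at -1.97 ± 0.44 (adjusted p = 0.00322). Between the CCl4 groups it was lower in sgBap1, at -1.63 ± 0.38, with an adjusted p of 0.108. Without NTC-Veh 2 the rise in NTC livers was 1.34 and was not called (adjusted p = 0.11). Gm20743, which overlaps Xcl1 on the other strand, had at most 1 count. The counts of Ifng, the gene of interferon gamma, were 2 and 0 in the NTC-Veh, 6 and 5 in the sgBap1-Veh, 3, 2 and 6 in the NTC-CCl4 and 2, 1 and 2 in the sgBap1-CCl4 livers, and it was not tested.

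Between the genotypes with CCl4, no T or NK cell gene was called. In sgBap1-CCl4 against NTC-CCl4 the fitted difference was above 0 for 9 of the 35 and below 0 for 26, against 50.4% and 49.6% of all tested genes, of which 0.329% were called, and the median was -0.15. At an unadjusted p under 0.05 there were 3 (Xcl1, Ctla4 and Pdcd1), where 14% of all genes passed. DESeq2's Wald test called none of the 29 of the 37 genes to which it gave an adjusted p, and 480 of 15567 genes in all. The median was 0.03 without sgBap1-CCl4 1, which had the lowest summed level of that group. The SE of the 35 differences ran from 0.24 to 0.68 on the log2 scale, which sets the size of difference that could be seen.

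The interaction, the CCl4 difference in sgBap1 livers minus that in NTC livers, was below 0 for all 35 genes, against 52.4% of all tested genes, with a median of -1.11. None was called, nor was any of the 17015 genes (0% called). DESeq2's Wald test called none of the 28 of the 37 genes to which it gave an adjusted p. Among all genes with an adjusted p it called 406 of 15058. At an unadjusted p under 0.05 there were 11 of the 35, against 10.4% of all genes. Xcl1, at -3.79 ± 0.67 (adjusted p = 0.0708), was the nearest to the threshold, followed by Klrk1 at -1.33 ± 0.40 (adjusted p = 0.246) and Cd3g at -1.49 ± 0.50 (adjusted p = 0.313). Prf1 (-0.08), Ctla4 (-0.38) and Gzma (-0.41) had the smallest. The median was -0.75 without NTC-Veh 2 and -1.87 without NTC-Veh 1. The interaction equals the difference between the genotypes with CCl4 minus that with vehicle, rests on the same 10 livers as those, and is not a separate result.

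**Figure D4:**
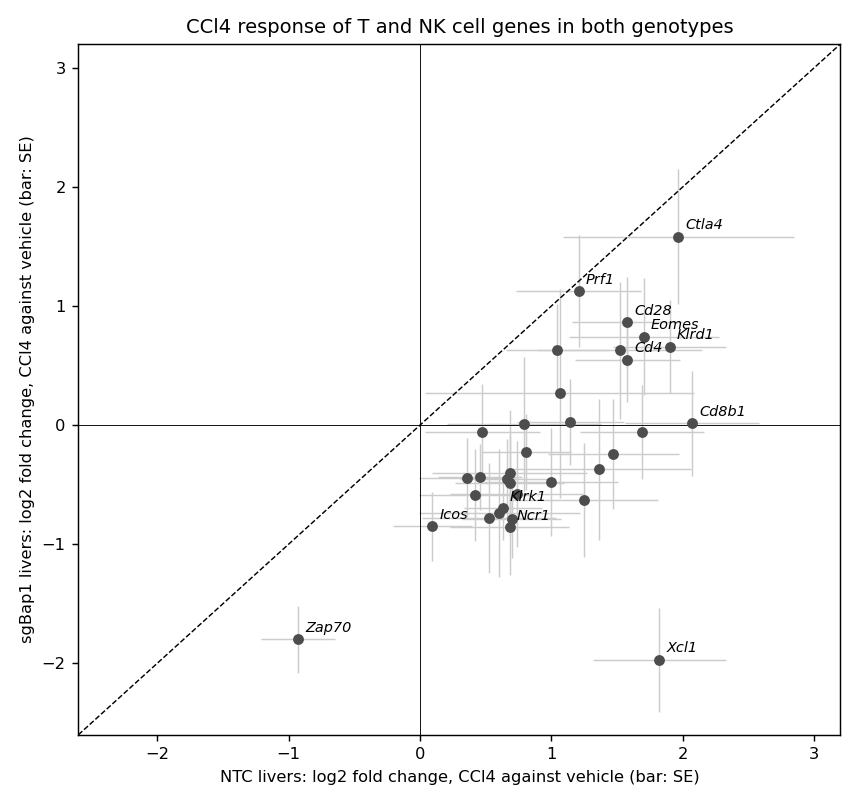
CCl4 response as log2 fold change in NTC livers (horizontal) and in sgBap1 livers (vertical) for 34 genes, Pdcd1 left out, with SE bars and a dashed line where both are equal. All points lie below the line, Zap70 is negative on both axes, and Xcl1 is at 1.82 and -1.97.

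Marker genes of other white blood cells were read in the same comparisons. In sgBap1-Veh all 6 pan-leukocyte genes were higher, and their sum was 46.7 to 67.4 CPM in NTC-Veh and 96 to 121 CPM in sgBap1-Veh livers. Of these, 1 was called, Ptprc (CD45), at 1.05 ± 0.18 (2 livers against 2, adjusted p = 0.0418). Ptprc measured 14.9 and 9.98 CPM in the NTC-Veh and 26.2 and 25.3 CPM in the sgBap1-Veh livers. Calls in this comparison depend on the fit: 69 of all tested genes were called here, and 1 with the replicate number as a block. All 8 Kupffer cell and macrophage genes were higher, with none called and sums of 180.0 to 292 and 363 to 562 CPM, and all 6 B cell genes, with none called and sums of 4.07 to 8.55 and 9.51 to 11.7 CPM. The 6 dendritic cell genes were also higher, with none called, a median of 0.52 and sums of 13.4 to 15.9 and 17.9 to 20.9 CPM. The neutrophil genes had a median of 0.41 with none of 5 called and 1 without overlap, and their sums overlapped, at 5.76 to 10.8 and 9.39 to 12 CPM. Of all tested genes 53.4% were higher, and 21.7% were higher without overlap. No gene of these lists was at 0 in all livers, and their part in the differences of the T and NK cell genes was not tested. With CCl4 in NTC livers, where 27.4% of all tested genes were called higher, all 6 pan-leukocyte genes were, to a sum of 265 to 325 CPM and with a median difference of 2.33, and Ptprc rose by 2.04 ± 0.17 (adjusted p = 7.28e-06). Of the Kupffer cell and macrophage genes 4 of 8 were called higher there, to 529.9 to 980.1 CPM. Most of that sum's increase came from Marco, a scavenger receptor, at 4.08 ± 0.72 (adjusted p = 0.00195), and Cd5l, a secreted macrophage protein, at 1.54 ± 0.32 (adjusted p = 0.00298). Clec4f, a marker of resident Kupffer cells (-0.25 ± 0.24, adjusted p = 0.418), and Cd163 (-0.89 ± 0.46, adjusted p = 0.136) had negative differences that were not called. Of the B cell genes 3 of 6 were called higher, to 9.9 to 13.6 CPM, of the dendritic cell genes 2 of 6, to 28.9 to 35.4 CPM, and of the neutrophil genes 5 of 5, to 27.9 to 37 CPM. Most of the increase of the dendritic cell sum, on average from 14.6 to 31.6 CPM, came from Itgax, from 1.73 to 17.5 CPM. The other dendritic cell genes did not all follow: 3 of the 6, Xcr1, Clec9a and Zbtb46, had negative differences, none of them called. Here too the part of these lists in the differences of the T and NK cell genes was not tested.

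Relative to Ptprc, the sums of the CD3 and receptor constant genes, of the NK receptor genes and of the granule genes were lower with CCl4 in both genotypes. So was the sum of the B cell genes. Single genes were not set against Ptprc, and they need not follow their sum. In NTC livers the mean of Ptprc went from 12.4 to 51.0 CPM and that of the CD3 and receptor constant sum from 3.98 to 6.93 CPM, so that both were higher with CCl4. As a percentage of the Ptprc CPM, the CD3 and receptor constant genes came to 42.3 and 16.7 in the NTC-Veh, 34.1 and 32.9 in the sgBap1-Veh, 13.4, 10.5 and 16.3 in the NTC-CCl4 and 10.9, 13.7 and 13.9 in the sgBap1-CCl4 livers. All 6 CCl4 livers were below all 4 vehicle livers, though NTC-Veh 2 was only just above NTC-CCl4 3, and both sgBap1-Veh livers lay between the NTC-Veh livers. On the same scale the NK receptor genes came to 50.7 and 35.6 in the NTC-Veh, 45.5 and 47.4 in the sgBap1-Veh, 19.8, 17.9 and 18.5 in the NTC-CCl4 and 15.6, 19.2 and 22.3 in the sgBap1-CCl4 livers. The percentage for the 5 granule genes was 12.3 and 14.4 in the NTC-Veh, 9.85 and 12.1 in the sgBap1-Veh, 7.52, 6.02 and 5.05 in the NTC-CCl4 and 5.7, 7.0 and 7.28 in the sgBap1-CCl4 livers, again with all CCl4 livers below all vehicle livers. The B cell genes came to 57.5 and 40.8 in the NTC-Veh, 44.7 and 37.6 in the sgBap1-Veh, 24.2, 21.2 and 23.6 in the NTC-CCl4 and 24.8, 21.8 and 22 in the sgBap1-CCl4 livers. In sgBap1-CCl4 2, the liver with the fat cell genes, Ebf1 made up 2.17 CPM of a B cell sum of 11.1 CPM. Ebf1 was at 0.112 to 0.477 CPM in the other livers. These ratios are descriptions, and no test was made on them.

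**Figure D5:**
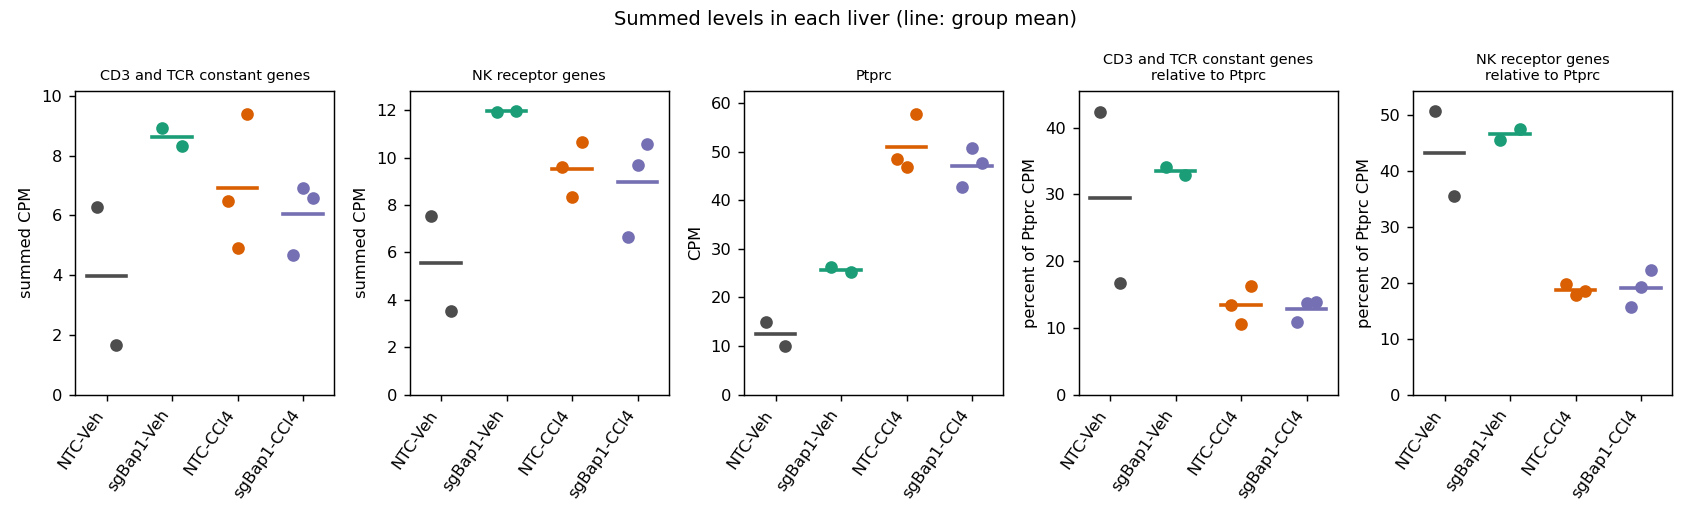
Summed CPM of the 7 CD3 and T cell receptor constant genes and of the 6 NK receptor genes, the CPM of Ptprc, and both sums as a percentage of Ptprc, on linear axes from 0, with a point per liver and a line at each group mean. The sums overlap between the CCl4 groups and are highest on average in sgBap1-Veh, Ptprc is highest with CCl4, and both percentages are lower in the 6 CCl4 livers than in the 4 vehicle livers.

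A wider list of 58 further T and NK cell genes, 48 of them tested, was read beside the 37. In sgBap1-Veh 45 of the 48 were higher, against 53.4% of all tested genes, with a median of 0.89 and none called. With CCl4 18 were called higher and 2 lower in NTC livers, against 27.4% and 26.6% of all tested genes. In sgBap1 livers 8 were called higher and 5 lower, against 29% and 28%. None of the 48 was called between the CCl4 groups or in the interaction. The largest differences of the other T cell genes in sgBap1-Veh were in Themis (2.62 ± 1.11), Ubash3a (1.99 ± 0.78) and Cxcr6 (1.77 ± 0.48), and of the other NK genes in Klrc1, the inhibitory partner of CD94 (1.73 ± 0.35, adjusted p = 0.0656), Klrb1b (1.53 ± 0.62) and Ctsw (1.33 ± 0.45). Themis rests on 1 liver, at 3.48 CPM in sgBap1-Veh 2 against 0.350 CPM in sgBap1-Veh 1. With CCl4 in NTC livers the largest were Trdc, Il7r (2.85 ± 0.43, adjusted p = 0.000336) and Tigit (2.42 ± 0.88, adjusted p = 0.0347), and Cd244a (2.53 ± 0.33, adjusted p = 0.000127), Klrb1b (2.48 ± 0.48, adjusted p = 0.00151) and Il18rap (2.12 ± 0.34, adjusted p = 0.000436). Tigit rests on few counts, 1 and 1 in the NTC-Veh and 3, 10 and 9 in the NTC-CCl4 livers.

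Trdc, the constant part of the delta chain of the gamma delta T cell receptor (ENSMUSG00000104876.1, chromosome 14, 54142851 to 54148868, plus strand), had a larger difference with CCl4 than any of the 37 genes. Its counts were 5 and 2 in the NTC-Veh, 5 and 1 in the sgBap1-Veh, 364, 1179 and 591 in the NTC-CCl4 and 1358, 1057 and 640 in the sgBap1-CCl4 livers. All CCl4 livers were far above all vehicle livers, by 7.26 ± 0.73 in NTC (adjusted p = 4.19e-05) and 7.57 ± 0.74 in sgBap1 livers (adjusted p = 3.52e-05), and the genotypes did not separate. The gamma chain genes Trgc1, Trgc2 and Trgc4, which code for the partner of the delta chain, were not called higher with CCl4 in either genotype, and Trgc1 (-1.06 ± 0.38, adjusted p = 0.0354) and Trgc2 (-1.46 ± 0.46, adjusted p = 0.021) fell in sgBap1 livers. Together they measured 0.463 and 0.333 CPM in the NTC-Veh, 1.48 and 0.898 in the sgBap1-Veh, 0.64, 0.301 and 0.625 in the NTC-CCl4 and 0.528, 0.462 and 0.616 CPM in the sgBap1-CCl4 livers. The 2 annotated genes that overlap Trdc on the other strand, Gm43434 and Trdv5, had at most 1 count in any liver. Whether reads of another transcript at this locus were counted as Trdc cannot be told from counts per gene, so the values are those of the locus as annotated.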

How the data were processed

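Bulk RNA-seq of 10 livers was analysed. Poly(A) libraries that keep strand were read by the authors as 50-base pairs, aligned to GRCm38 (STAR 2.7.6a) and quantified (Salmon 1.4.0). The deposited table holds the authors' estimated counts for each of 55291 gene symbols, not normalized, of which 9.22% are not whole. They were rounded and tested in R 4.3.3 with edgeR 4.0.16 (filterByExpr, TMM, glmQLFit with robust = TRUE and the method of edgeR 4, one model of the 4 groups, 17015 genes), with two-sided p-values adjusted by the method of Benjamini and Hochberg within a comparison. The SE is the log2 fold change divided by the square root of F. Depth was 3.30e+07 to 5.22e+07 counts, and 3 counts correspond to at most 0.112 CPM, which covers counting error only. All 10 columns were matched by group and replicate number, and no other column was present.

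The 37 genes, the wider list and the marker lists were chosen with earlier results of these data known. All 37 are accounted for. Values per liver are given for genes called in sgBap1-Veh, between the CCl4 groups or in the interaction, for the 8 largest differences with CCl4 in NTC livers and the 6 largest in each of the other 3, and for 12 chosen markers. Called genes and Zap70, Lck, Icos, Tbx21, Nkg7, Cd5 and Cd28 were also described. Of the wider lists, the 3 largest differences per list are named for sgBap1-Veh and for NTC-CCl4. Trgc genes, Adipoq, Plin1 and Gm18828 were added after their values were seen. Whole tissue was measured, and nothing in the sources ties each liver to a batch, so none was tested. P-values reflect the spread between these mice. Positions, overlaps and shared stretches of 50 bases are those of GENCODE vM21 (vM25 not used here), and upstream sequences from RefSeq on GRCm38.p6.

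The alternatives were DESeq2 size factors, library size alone, no filter beyond 1 count, a mean of at least 10 counts, DESeq2 1.42.0's Wald test, the replicate number as a block, a fit of only the 2 groups in question, and each mouse left out in turn, with the method of edgeR 3 and the medians of the genes added after the data were seen. The fit was tested on simulated data with known changes.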

Additional observations from a re-analysis of the deposited data

Results flagged for a closer look

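In 4 of the 35 tested genes every NTC-CCl4 liver was above both NTC-Veh livers while every sgBap1-CCl4 liver was below both sgBap1-Veh livers, a pattern found in 0.529% of all tested genes. The difference of the 2 responses was -3.79 on the log2 scale for Xcl1, -1.54 for Ncr1, -1.33 for Klrk1 and -0.89 for Nkg7. That difference was tested as the interaction, and none of the 4 passed, with adjusted p-values of 0.0708, 0.406, 0.246 and 0.514 in edgeR's quasi-likelihood test. Xcl1 rests on 2 to 18 counts per liver. In NTC livers Xcl1 was the one of the 4 called with CCl4, and in sgBap1 livers Xcl1 and Klrk1 were, the call of Klrk1 being lost in 14 of 18 alternative settings.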

How the results depend on the processing

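Of 893 recomputed values for single genes, 822 kept their direction and their side of the threshold, 62 lost the call, 6 gained one and 3 changed sign, all 3 without NTC-Veh 2: Prf1 in sgBap1-Veh became -0.35 (range with 1 mouse left out -0.35 to 1.06), and with CCl4 in NTC livers Trac became -0.14 (-0.14 to 2.27) and Klrb1c -0.081 (-0.081 to 1.42). The number of the 35 genes called in sgBap1-Veh was 0 and became 1 with DESeq2's Wald test. With CCl4 it went from 12 to 24 in NTC livers and from 5 to 9 in sgBap1 livers with library size alone, and from 5 to 3 in sgBap1 livers with the Wald test. With 1 mouse left out the number was 0 to 0 in sgBap1-Veh, between the CCl4 groups and in the interaction, 2 to 14 with CCl4 in NTC livers (2 without NTC-Veh 2) and 2 to 7 in sgBap1 livers (2 without sgBap1-Veh 2, and 3 without sgBap1-Veh 1 or sgBap1-CCl4 2). A vehicle group then holds 1 liver, which is assumed to vary like the other groups. Over all tested genes, the 69 called in sgBap1-Veh became 551 with the Wald test, 103 without the filter, 32 with library size alone, 27 with only the 2 groups, 1 with the replicate block and 0 to 150 with 1 mouse left out. The 56 called between the CCl4 groups became 480, 94 (no filter), 28 (2 groups), 24 (block) and 1 to 71, and the 0 of the interaction became 406 (Wald test), 34 (no filter), 2 (library size alone) and 0 to 7. The interaction has no value with only the 2 groups compared, and Ctla4 and Pdcd1 have none in several settings because they failed the filter. The cause of these changes was not tested.

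The replicate numbers did not pair the livers: the deviations of 13 same-numbered pairs correlated at -0.194 to 0.125, with 1 pair over 0.1, and those of 24 other pairs at -0.23 to 0.23. With the replicate number as a block, 0 of the 35 genes were called in sgBap1-Veh, 10 with CCl4 in NTC livers, 6 in sgBap1 livers, and 0 between the CCl4 groups and in the interaction. Among the 37 genes, few counts limit Pdcd1, Ctla4, Foxp3, Eomes, Gzmk, Ifng and Xcl1 most.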
